A study of Mus musculus with 55 samples.

Results

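The genes examined here are 41 genes whose products break down RNA in the cytoplasm and nucleus: the RNA exosome with its nucleases and helicases, the decapping machinery with the LSM ring, the nonsense-mediated decay (NMD) factors and 3 poly(A) nucleases. They were listed by name and not by a cut on measured values, though with earlier results of these data known. All 41 were found among the 33924 genes of the first count table, and 40 of them among the 37310 features of the second, where the row with the same exon coordinates was taken. Lsm3 has no row with the same exons in the second table and was not analysed there. All measured members passed the filter on low counts in every comparison.

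RNA decay in animal cells runs mainly from both ends of an mRNA. From the 3' end, poly(A) nucleases shorten the tail, and the exosome, a barrel of non-catalytic ring subunits with attached nucleases, degrades the body, helped in the cytoplasm by the SKI helicase complex and in the nucleus by the helicase Skiv2l2 (MTR4). From the 5' end, the LSM1-7 ring and PATL1 recruit the decapping enzyme DCP2 and its activators, after which XRN1 degrades the decapped RNA. NMD, in which UPF1 is loaded on an mRNA with the help of UPF2 and UPF3 and is phosphorylated by SMG1, removes transcripts with a premature stop codon. Oocytes store maternal mRNA over a long growth phase, and the transcripts of decay factors are themselves part of that store. The helicase under study, DHX36 (RHAU), opens G-quadruplexes, which are stacked folds of guanine-rich RNA or DNA.

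The libraries were mouse oocyte RNA from ovary, and 24 of the 26 RNA sequencing libraries in the tables were used, out of 55 samples in the series. growing_sko and growing_control (3 libraries each) were, per the labels, growing oocytes of Dhx36 fl/fl mice carrying SKO and of controls. A second experiment held rhau_sko and c, each with and without DRB, an inhibitor of the kinase that releases paused RNA polymerase II. Its 2 libraries under 200000 counts were left out, which left rhau_sko (1), rhau_sko_DRB (2), c (2) and c_DRB (1). GV_cPDS_12h and GV_C (3 each) were germinal vesicle oocytes, fully grown oocytes arrested before maturation, labelled for 12 h of cPDS (a name used for carboxypyridostatin, a ligand of RNA G-quadruplexes) and as controls. Trim21_3h and Trim_control_3h (3 each) carried a 3 h label and Dhx36 in their titles. Trim-Away uses the ubiquitin ligase TRIM21 and an antibody to destroy a protein. The labels give no strain, age or dose, do not spell out SKO or name the promoter that drives a Cre, and say nothing on how many oocytes were pooled. One protocol text, on growing oocytes, stands on every sample. Nothing says that libraries of a group came from separate animals, so p-values measure the spread between these libraries, which may be technical.

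The 24 libraries held 7452742 to 65444652 counts, and the shallowest, Trim21_3h replicate 2, held less than the other Trim libraries (15021218 to 32704737). The transcript of Dhx36 was checked first. Growing sko oocytes held 2.83, 1.95 and 1.73 CPM (counts per 1000000 counts, scaled within each experiment), against 7.34, 8.06 and 10.9 CPM in growing control oocytes. The second experiment held 7.70, 4.42 and 5.73 CPM in the rhau_sko libraries with and without DRB, against 47.3, 42.5 and 38.2 CPM in the c libraries, and the Trim experiment held 6.23, 8.17 and 8.77 CPM with Trim21, against 29.6, 32.0 and 29.9 CPM in its controls. The sko and Trim21 libraries were thus all lower in Dhx36 transcript than their controls. The log2 fold change was -2.01 in growing sko oocytes and -1.99 with Trim21. Trim-Away acts on protein, which these libraries do not measure, so the transcript does not show whether the protein was lost. Why the transcript was lower with Trim21 was not tested. After cPDS Dhx36 was higher, with 31.3, 36.9 and 38.3 CPM, against 23.0, 20.6 and 20.9 CPM in GV_C. All 10 oocyte markers had counts in every library of every group. In bulk samples like these, fewer cells of a type and less RNA per cell cannot be told apart.

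Levels in the 4 control groups without DRB set the scale, in CPM per kilobase of exon to take account of gene length. Experiments were scaled separately, so levels across them are only set side by side, with no test. The highest members in GV_C were Lsm3, at 261, Lsm5, at 138, and Lsm7, at 102 CPM per kb, all subunits of the LSM ring that binds the shortened 3' end. Exosc1, a cap subunit of the exosome, followed at 89.8 CPM per kb. The lowest were the decapping scaffold Edc3, at 0.146, Smg5, an NMD adaptor that binds phosphorylated UPF1, at 0.337, and the decapping activator Dcp1b, at 0.343 CPM per kb. Its paralog Dcp1a stood at 73.0 CPM per kb in the same group, so nearly all DCP1 transcript was Dcp1a in these oocytes. The ranking depends on dividing by length, since Lsm5 and Lsm7 have short exons (499 and 468 bases). In CPM without that step the highest in GV_C were Dcp1a, at 410, Lsm3, at 319, and Pan3, at 250. Lsm5 stood at 68.8 and Lsm7 at 47.5 CPM. How evenly reads covered the exons was not examined.

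Growing control oocytes had the lowest level of the 4 control groups in 24 of the 40 members with a value in each, and in 14 of them by 2-fold or more. The same count was not made over all genes, so it is not known whether this is particular to the members. Lsm7 stood at 5.44 CPM per kb in growing_control, 235 in c, 102 in GV_C and 238 in Trim_control_3h. Exosc1 stood at 8.68, 124, 89.8 and 126 CPM per kb in the same order. Pan3, the adaptor that brings the PAN2 nuclease to the poly(A) tail, stood at 6.88, 131, 53.2 and 137 CPM per kb, and Upf1, the central NMD helicase, at 2.89, 14.6, 13.7 and 32.9 CPM per kb. Lsm1 stood at 5.73, 83.6, 36.0 and 41.6 CPM per kb, and the ring subunit Exosc8 at 9.73, 62.1, 40.5 and 55.3 CPM per kb. These 6 genes had the widest gaps between growing controls and the other groups. The median over the members was 8.68 CPM per kb in growing_control, 18.1 in c, 14.2 in GV_C and 17.3 in Trim_control_3h. Others were at like levels throughout: Patl1, the scaffold of decapping, ranged over 2.56 to 2.67 CPM per kb, and the exonuclease Xrn1 over 3.80 to 5.90 CPM per kb. Experiment, oocyte stage and library preparation cannot be told apart in this contrast.

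**Figure D1:**
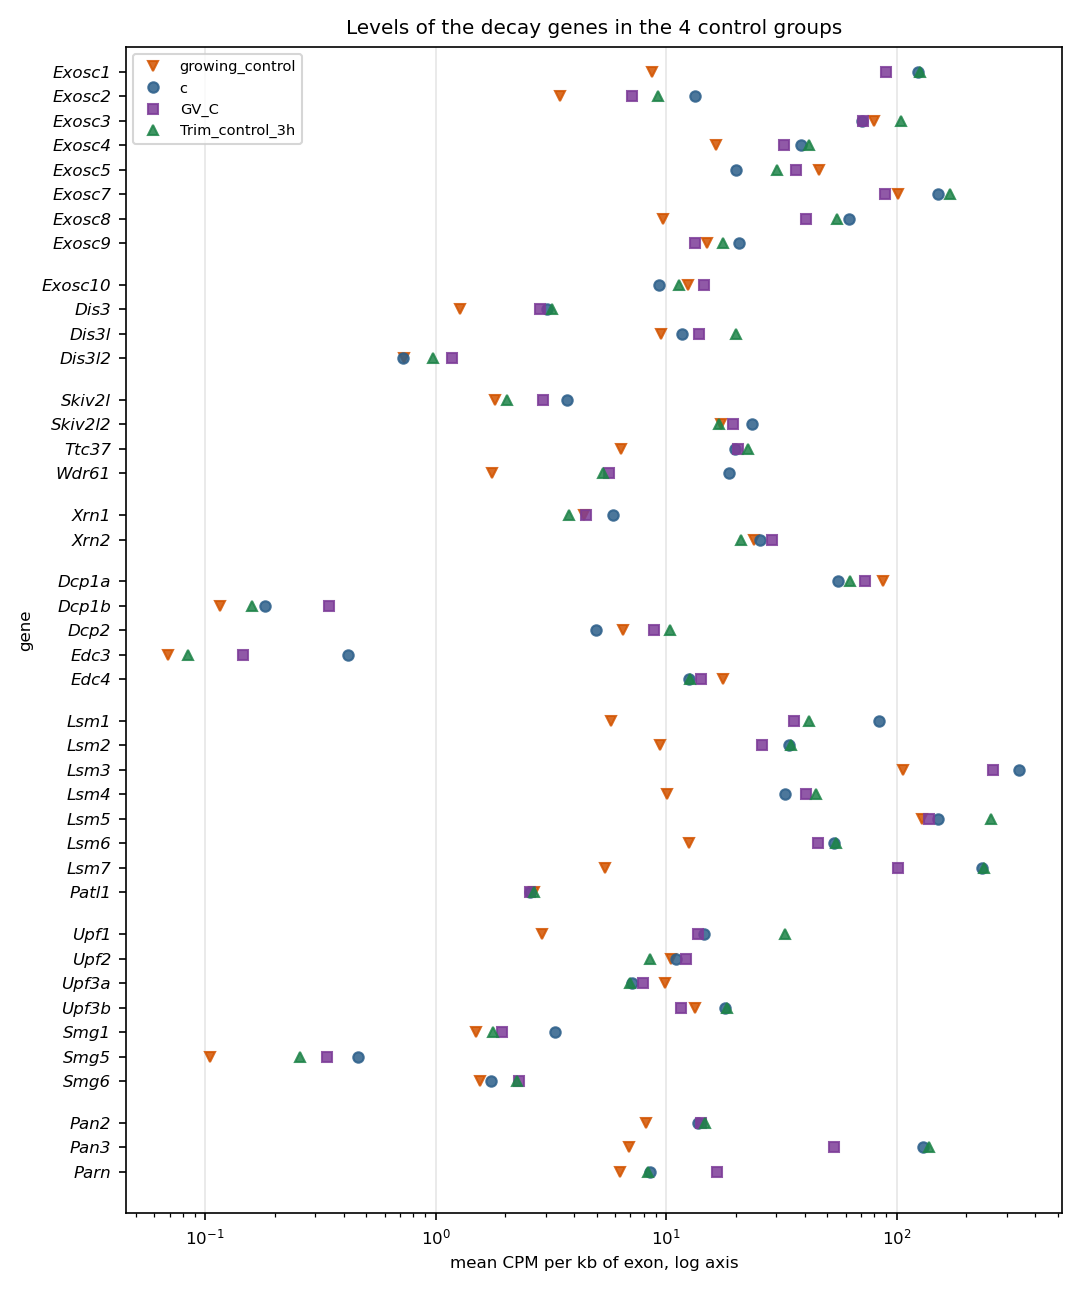
Mean CPM per kilobase of exon (log axis) of each member in growing_control, c, GV_C (3, 2 and 3 libraries) and Trim_control_3h (3 libraries), grouped by role, with no error bars. Lsm7, Exosc1, Pan3 and Upf1 have growing control points far to the left of the other groups, while Patl1 and Xrn1 have theirs together.

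In growing sko oocytes 17 of the 41 members changed (6 higher, 11 lower), against 53.7% of the 14081 genes tested (28.5% higher, 25.2% lower). The members changed in 41.5% of cases, a smaller share than all genes, and their median log2 fold change was 0.01, against 0.02 over all genes tested. A gene is said to rise, fall or change where edgeR's quasi-likelihood test gave it a p under 0.05 after Benjamini-Hochberg adjustment across every gene tested. Every member of the helicase and SKI group changed: Wdr61, Skiv2l and Ttc37, the 3 subunits of the cytoplasmic SKI complex, rose, and Skiv2l2, the nuclear exosome helicase, fell. Decapping genes fell where they changed, Dcp1a, Dcp2 and Edc4 of 5. The exosome itself changed little, with Exosc5 alone called among the 8 ring genes, lower. Dis3l alone was called, also lower, in the group of 4 that holds the exosome nucleases and Dis3l2. Of the LSM ring and PATL1, Lsm1 rose and Lsm3, Lsm6 and Lsm7 fell, and of the poly(A) nucleases Pan2 fell. Of the NMD factors, Upf2 and Smg5 rose and Upf3b fell.

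Scaling mattered for the small changes. When libraries were scaled by their size alone, which moves the median of all genes to 0.21, 11 members rose and 8 fell, and 34.3% of all genes rose and 16.9% fell. Lsm3, Lsm6 and Dis3l were then not called, while Exosc2, Exosc4, Xrn2, Upf3a and Parn were called higher. The calls of the SKI group, of the 3 decapping genes, of Upf2, Upf3b, Smg5, Lsm1, Lsm7, Exosc5 and Pan2 were made under each scaling. Granulosa cell markers moved with the genotype: summed over 13 genes they took 0.00702 to 0.00748% of counts in growing sko libraries and 0.00167 to 0.00197% in growing controls, with Ptx3 and Tnfaip6 at 0 in both groups. Theca and stroma markers (6 genes) took 0.000428 to 0.000803% of counts in growing sko libraries and 0.000219 to 0.000279% in growing controls, while the ranges of the oocyte and of the immune, endothelial and blood markers overlapped between the groups. The part of these markers in the results was not tested.

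**Figure D2:**
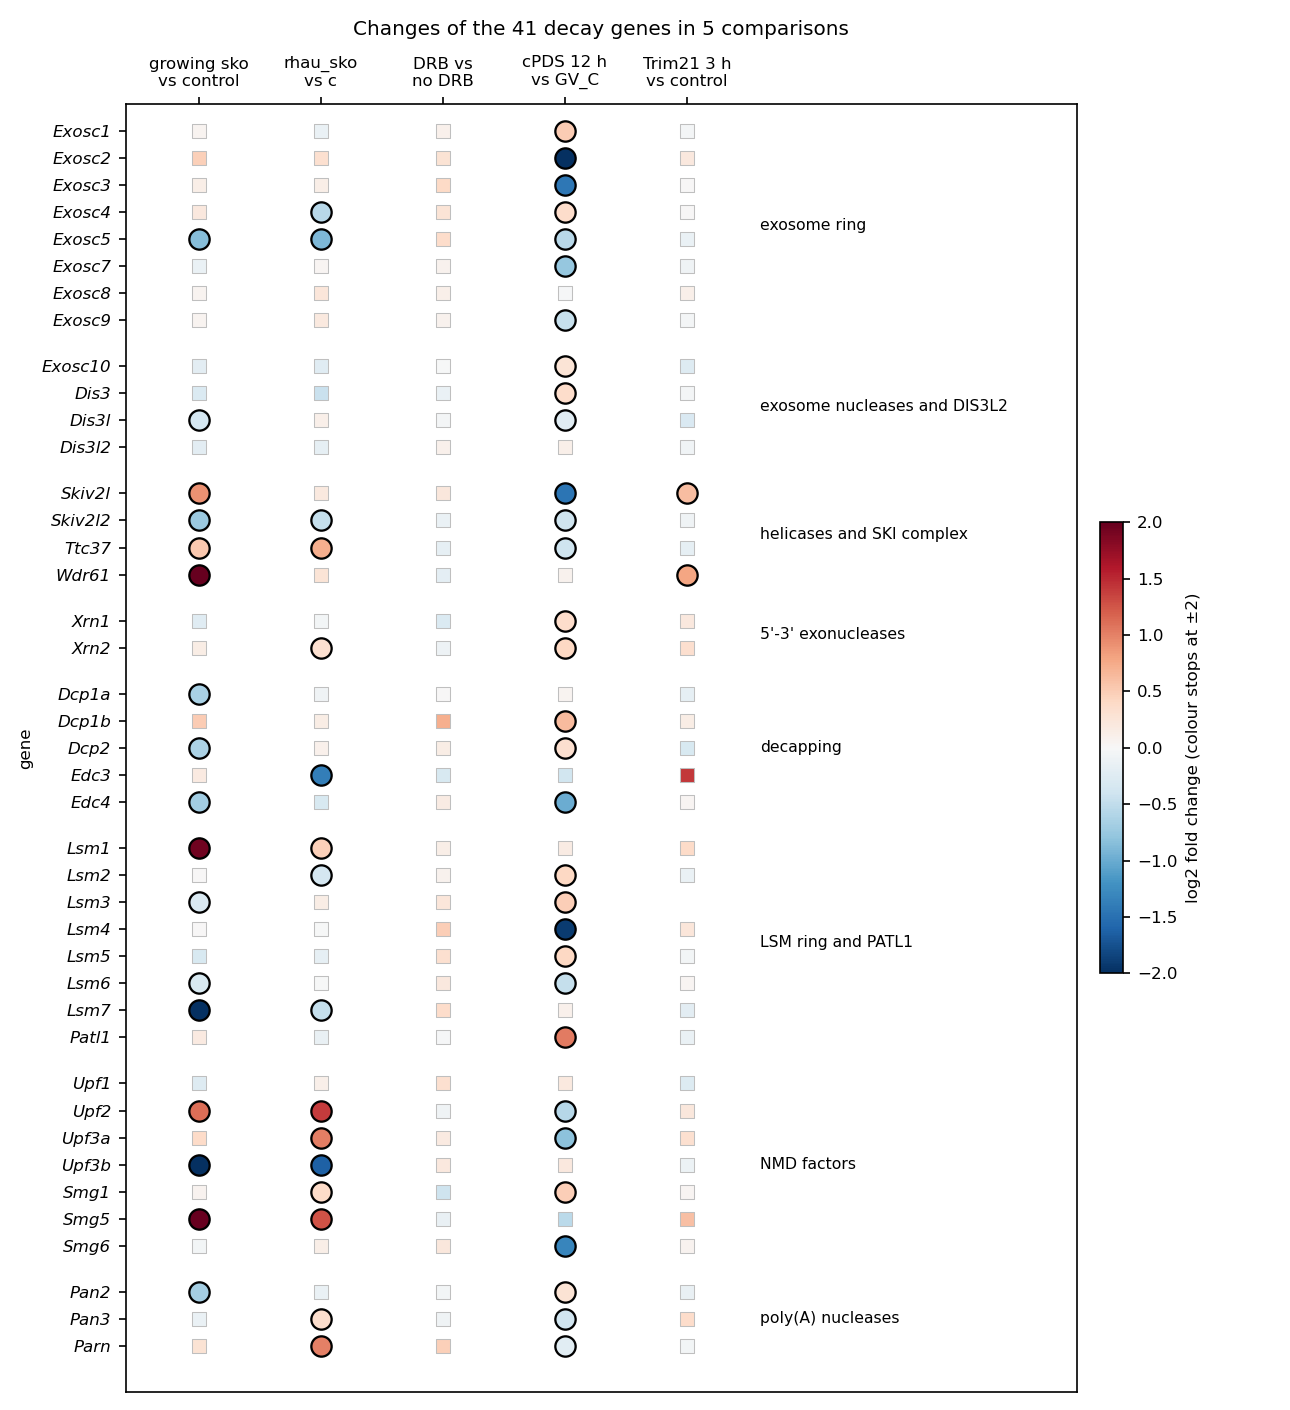
Log2 fold change of each member (colour, which stops at 2 either way) in 5 comparisons. Large circles with a black edge passed the edgeR threshold and small squares did not; Lsm3 has no value in the Trim column. The cPDS column holds 31 circles of 41, the Trim column 2 of 40 and the DRB column none.

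NMD factors held the largest changes of the members in both sko experiments. Upf3b, the X-linked paralog that bridges the exon junction complex and UPF2 (chrX:34631673-34650335, minus strand, build mm9), held 10.1, 11.8 and 11.8 CPM in growing sko oocytes, against 50.003, 52.6 and 58.4 CPM in growing controls. In the second experiment it held 21.7, 26.8 and 27.5 CPM in the rhau_sko libraries, the first without and the others with DRB, against 74.6, 70.4 and 77.7 CPM in the c libraries, the last with DRB and the others without. No sko library came near a control library in either experiment, and the log2 fold changes were -2.25 ± 0.14 (SE, adjusted p = 2.87e-09) in growing oocytes and -1.63 ± 0.13 (SE, adjusted p = 7.96e-06) in the second experiment.

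Upf2, which links UPF3 to UPF1 (chr2:5872515-5977749, plus strand), went the other way. It held 112, 137 and 125 CPM in growing sko oocytes, against 56.2, 55.7 and 60.2 CPM in growing controls, and 138, 152 and 147 CPM in the rhau_sko libraries, against 56.4, 63.8 and 49.3 CPM in the c libraries. Its control levels were close in the 2 experiments and every sko library was well above them. The log2 fold changes were 1.12 ± 0.12 (SE, adjusted p = 1.80e-06) in growing oocytes and 1.40 ± 0.13 (SE, adjusted p = 2.23e-05) in the second experiment.

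Upf3a, the autosomal paralog of Upf3b, held 24.0, 24.0 and 21.5 CPM in the rhau_sko libraries, against 9.402, 10.5 and 13.4 CPM in the c libraries, a rise with a log2 fold change of 1.02 ± 0.18 (SE, adjusted p = 0.00128). In growing oocytes it held 18.3, 18.0 and 18.0 CPM with sko, against 11.6, 12.8 and 17.4 CPM in controls. The change missed the threshold, with a log2 fold change of 0.38 ± 0.16 (SE, adjusted p = 0.0565). Per kilobase of exon, Upf3b and Upf3a had control means of 13.4 and 9.92 CPM per kb in growing_control and of 18.1 and 7.10 CPM per kb in c.

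Smg5 (chr3:88140182-88166259, plus strand) was rare in every library. It held 2.88, 3.38 and 3.54 CPM in growing sko oocytes, against 0.471, 0.300 and 0.629 CPM (17, 9 and 20 reads) in growing controls. In the second experiment it held 4.04, 4.20 and 4.70 CPM in the rhau_sko libraries, against 1.96, 2.14 and 1.497 CPM in the c libraries. The groups did not overlap in either experiment, and the log2 fold changes were 2.79 ± 0.34 (SE, adjusted p = 5.29e-06) and 1.27 ± 0.32 (SE, adjusted p = 0.00958). The call in the second experiment rests on c_DRB replicate 3, without which the adjusted p was 0.102. Smg1, the kinase that phosphorylates UPF1, rose in the second experiment with overlapping groups, at 55.0 ± 9.21 CPM in the rhau_sko libraries and 46.6 ± 7.75 CPM in the c libraries (SD, n = 3 each; log2 fold change 0.38 ± 0.12 SE, adjusted p = 0.0280). Upf1 and the endonuclease Smg6 passed the threshold in neither sko experiment.

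**Figure D3:**
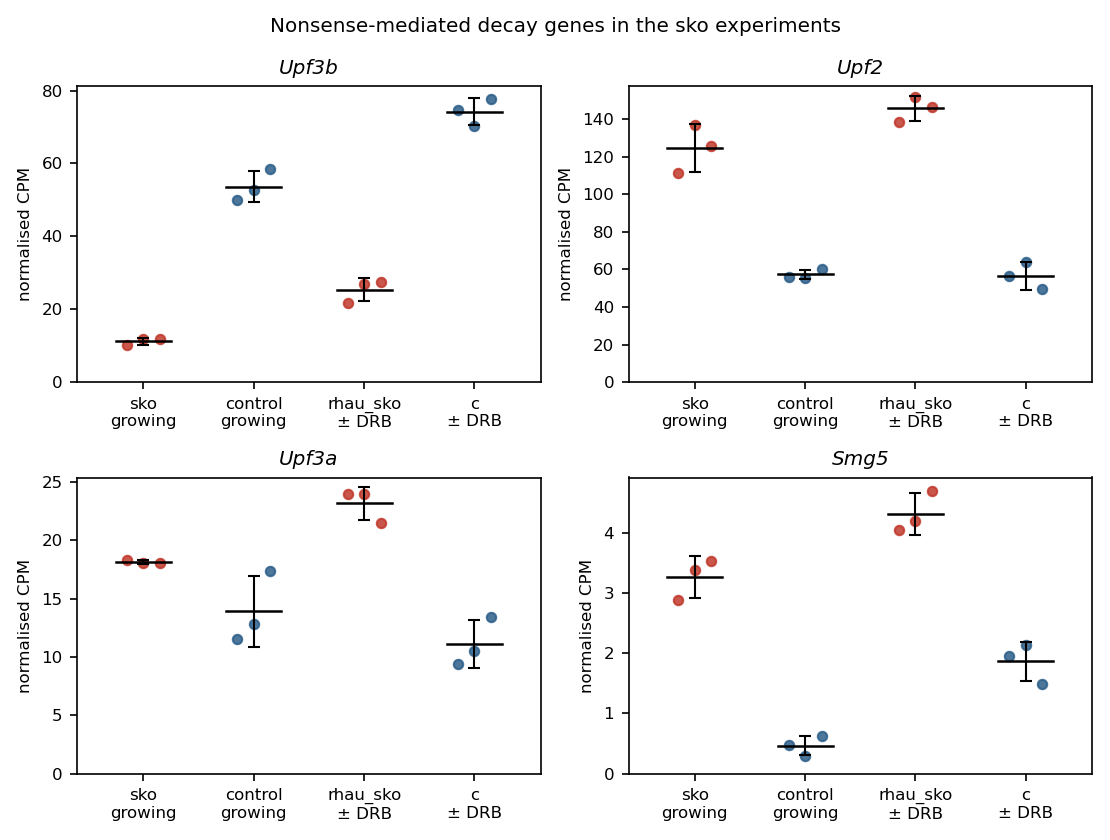
Normalised CPM of Upf3b, Upf2, Upf3a and Smg5 in each library (points) with the mean (line) and SD (bar) of each group, for growing sko, growing control, rhau_sko with or without DRB and c with or without DRB (3 libraries each). Upf3b is lower in both sko groups and Upf2 and Smg5 are higher in both, with no overlap between a sko group and its control.

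Since DHX36 unwinds G-quadruplexes, the promoters were searched for the letters of one, 4 runs of GGG separated by loops of 1 to 7 bases, in RefSeq windows of 250 bases before to 50 bases after the start (build GRCm38.p6). Upf2 and Upf3b, the NMD genes with opposite changes in both sko experiments, each hold a match on the gene's strand and are shown for that reason, as the 250 bases before the start with every base that belongs to a match, overlapping matches included, in capitals.
Upf3b, chrX:37110323-37110572, minus strand: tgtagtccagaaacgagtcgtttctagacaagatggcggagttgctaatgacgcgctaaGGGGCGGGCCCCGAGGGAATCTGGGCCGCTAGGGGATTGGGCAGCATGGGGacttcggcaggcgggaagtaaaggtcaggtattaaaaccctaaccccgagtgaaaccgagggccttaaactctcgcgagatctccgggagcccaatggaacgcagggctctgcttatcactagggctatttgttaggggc
Upf2, chr2:5951219-5951468, plus strand: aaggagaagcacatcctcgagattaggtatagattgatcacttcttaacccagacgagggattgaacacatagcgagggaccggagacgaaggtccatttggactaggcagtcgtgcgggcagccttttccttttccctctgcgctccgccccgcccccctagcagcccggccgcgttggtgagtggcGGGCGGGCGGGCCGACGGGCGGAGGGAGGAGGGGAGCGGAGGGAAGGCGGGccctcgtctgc
Overlapping matches join into 1 stretch of 51 bases in each gene, which ends 141 bases before the start in Upf3b and 12 bases before it in Upf2. A match on the gene's strand stood in 5 of the 38 windows of the 34 members that had one (Dis3l, Dcp1b, Upf2, Upf3b and Smg6), or 13.2%, against 10.5% of the 32851 windows of all genes. On either strand it was 18.4% of the members' windows and 18.6% of all windows. Of these 5 genes, Upf3b and Dis3l fell and Upf2 rose in growing sko oocytes, and Dcp1b and Smg6 did not pass the threshold. In that comparison 41.5% of the members and 53.7% of all genes passed. In the second experiment Upf3b fell, Upf2 rose and Dis3l, Dcp1b and Smg6 did not pass, where 37.8% of all genes passed. A link between the motif and the changes was not tested. Exosc4, Exosc9, Skiv2l, Wdr61, Dcp2, Lsm1 and Lsm4 had no window in the RefSeq table.

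The other large changes of growing sko oocytes were in the SKI complex and the LSM ring. Wdr61, the WD-repeat subunit of the SKI complex that is also part of the PAF1 transcription complex (chr9:54562542-54595757, minus strand), held 36.0, 39.0 and 42.3 CPM in growing sko oocytes, against 10.6, 6.43 and 7.67 CPM in controls (log2 fold change 2.25 ± 0.17 SE, adjusted p = 3.82e-08). Skiv2l, the SKI helicase (chr17:34976173-34987155, minus strand), held 18.0, 17.8 and 14.8 CPM, against 8.48, 8.96 and 9.46 CPM in controls (log2 fold change 0.91 ± 0.15 SE, adjusted p = 1.18e-04). Ttc37, the scaffold, averaged 67.6 ± 3.40 CPM in growing sko oocytes and 46.4 ± 1.80 CPM in controls, a smaller rise. In all 3 the lowest sko library was above the highest control. Wdr61 overlaps the exons of Dnaja4, on the opposite strand, over 33.8% of its exon length, and without a strand setting the reads of the pair cannot be told apart. Dnaja4 itself had a log2 fold change of -0.19 (adjusted p = 0.502).

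Lsm1, the subunit that sets the cytoplasmic LSM ring apart from the nuclear one (chr8:26896063-26914447, plus strand), held 45.1, 56.4 and 55.6 CPM in growing sko oocytes, against 13.5, 14.1 and 13.0 CPM in controls, a log2 fold change of 1.95 ± 0.14 (SE, adjusted p = 1.43e-08). Lsm7, a ring subunit with few reads in growing oocytes (chr10:80315570-80317954, minus strand), held 0.828, 0.624 and 0.393 CPM in growing sko oocytes, against 1.30, 2.53 and 3.80 CPM in controls, a log2 fold change of -2.04 ± 0.42 (SE, adjusted p = 7.33e-04). The 2 ring subunits thus moved apart, both with no overlap between groups, and the Lsm7 values rest on 15 to 121 reads a library. Exosc5, a ring subunit of the exosome, held 27.2, 25.3 and 26.3 CPM, against 50.7, 41.8 and 50.2 CPM in controls (log2 fold change -0.86 ± 0.13 SE, adjusted p = 4.07e-05). The decapping genes fell by less: Dcp1a averaged 313 ± 25.9 CPM in sko and 492 ± 49.0 CPM in control oocytes, and the catalytic subunit Dcp2 averaged 36.0 ± 4.48 CPM in sko and 55.9 ± 3.05 CPM in control oocytes (SD, n = 3 each). Edc4, the scaffold that joins DCP1 and DCP2, averaged 60.0 ± 2.95 CPM in sko and 97.2 ± 21.7 CPM in control oocytes. The 24 members that did not pass the threshold had log2 fold changes of -0.32 to 0.51.

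In the second experiment 16 of the 41 members changed between rhau_sko and c libraries (9 higher, 7 lower), against 37.8% of the 15923 genes tested (19.9% higher, 17.9% lower). The members' share, 39%, was near that of all genes, and their median log2 fold change was 0.11, against -0.01 over all genes. Genotype and DRB were additive terms of one fit of the 6 deep libraries. Of the 7 NMD genes, Upf2, Upf3a, Smg1 and Smg5 rose and Upf3b fell. Ttc37 rose and Skiv2l2 fell in the helicase and SKI group. Exosc4 and Exosc5 were the exosome genes that fell, and no exosome nuclease passed. Of the LSM ring, Lsm1 rose and Lsm2 and Lsm7 fell, of the exonucleases Xrn2 rose, and of the poly(A) nucleases Pan3 and Parn rose. Edc3 was the decapping gene called, lower. Xrn2 and Pan3 were not called when libraries were scaled by their size alone.

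Ttc37 held 242, 216 and 204 CPM in the rhau_sko libraries, against 139, 149 and 129 CPM in the c libraries (log2 fold change 0.72 ± 0.10 SE, adjusted p = 3.40e-04). Exosc5 held 10.4, 13.5 and 15.3 CPM, against 20.7, 20.8 and 25.1 CPM in the c libraries (log2 fold change -0.89 ± 0.17 SE, adjusted p = 0.00183), and Exosc4, also a ring subunit, held 51.6, 59.8 and 62.3 CPM, against 77.7, 71.1 and 91.8 CPM (log2 fold change -0.56 ± 0.11 SE, adjusted p = 0.00323). The groups did not overlap in these 3 genes. Exosc4 overlaps Oplah on the opposite strand over 19.8% of its exons. Edc3 held 0.955, 1.13 and 0.367 CPM in the rhau_sko libraries, against 2.46, 2.36 and 2.00 CPM in the c libraries (log2 fold change -1.38 ± 0.48 SE, adjusted p = 0.0430). Edc3 rests on 10 to 96 reads a library, shares 10% of its exon length with Clk3 on the opposite strand, and lost its call when rhau_sko replicate 5, rhau_sko_DRB replicate 8 or any of the c libraries was left out. Parn, a cap-stimulated poly(A) nuclease, rose with widely spread values, 46.7, 30.9 and 107 CPM in the rhau_sko libraries, against 24.99, 24.4 and 32.1 CPM in the c libraries, the highest in rhau_sko_DRB replicate 8 (log2 fold change 1.01 ± 0.35 SE, adjusted p = 0.0419).

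The number of members called in the second experiment was 8 when c replicate 1 was left out, where 28.1% of all genes passed. It was 9 when either c replicate 2 (30% of all genes) or c_DRB replicate 3 (22.3%) was left out. It was 6 with the 2 shallow libraries included, where 26% of all genes passed. Granulosa markers took 0.0104 to 0.0143% of counts in the rhau_sko libraries and 0.0058 to 0.00694% in the c libraries, with Amh at 0 in each group. Theca and stroma markers took 0.000456 to 0.000631% in the rhau_sko libraries and 0.000145 to 0.000276% in the c libraries. Immune, endothelial and blood markers (7 genes) took 0.00231 to 0.00328% in the rhau_sko libraries and 0.00408 to 0.00484% in the c libraries, with Hba-a1 and Hbb-b1 at 0 in each group, and oocyte markers took 0.837 to 1.00% in the rhau_sko libraries and 1.31 to 1.501% in the c libraries. All 4 lists thus moved with the genotype without overlap, and their part in the results was not tested.

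In both sko experiments 8 of the 41 members were called, all 8 in the same direction: Exosc5, Skiv2l2, Lsm7 and Upf3b lower and Ttc37, Lsm1, Upf2 and Smg5 higher. They made up 47.1% of the calls in growing oocytes and 50% of those in the second experiment. Over the 13684 genes tested in both, 3952 were called in both and 3761 of these in the same direction. Those 3761 were 51% of the calls in growing oocytes and 68.1% of those in the second experiment, counted among genes tested in both. The sign of the change was shared by 28 of the 41 members, or 68.3%, and by 74.5% of all genes.

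The size of the sko change was then compared between the experiments in one fit of 12 libraries, with the second experiment's change subtracted. Of the 41 members 9 differed, or 22% (5 more positive and 4 more negative in growing oocytes), against 13.2% of the 16655 genes tested (7.93% more positive, 5.25% more negative). Wdr61 differed most in size, by 1.99 ± 0.28 (SE, adjusted p = 1.40e-04) on the log2 scale. It held 77.8, 78.8 and 106 CPM in the rhau_sko libraries, against 92.3, 82.7 and 56.0 CPM in the c libraries, which overlap, unlike the growing groups given above. Lsm1 differed by 1.497 ± 0.19 (SE, adjusted p = 6.06e-05): it held 226, 275 and 329 CPM in the rhau_sko libraries, against 198, 196 and 179 CPM in the c libraries, groups that do not overlap. Exosc4 differed by 0.80 ± 0.18 (SE, adjusted p = 0.00747), with 34.3, 35.9 and 40.97 CPM in growing sko oocytes, against 31.5, 28.0 and 36.4 CPM in growing controls, where the groups overlap. Dcp2 differed by -0.72 ± 0.18 (SE, adjusted p = 0.0140), with 32.1, 40.9 and 34.96 CPM in growing sko oocytes, against 52.7, 56.1 and 58.8 CPM in growing controls, and 50.4, 50.9 and 51.3 CPM in the rhau_sko libraries, against 39.2, 46.6 and 51.6 CPM in the c libraries. The count of members that differed was 4 without rhau_sko replicate 5, 5 without c replicate 1 and 5 without c_DRB replicate 3, where 6.57%, 9.7% and 8.42% of all genes differed. It was 5, all more positive, under library size alone, where 14.1% of all genes differed and the median difference of all genes was 0.25 in place of 0.07. Experiment and whatever else differs between these sets of oocytes cannot be told apart.

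DRB changed no member beyond the threshold in the same 6 libraries, in which 2 genes of 15923 (0.0126%) passed, 1 higher (0.00628%) and 1 lower (0.00628%). By edgeR 7 of the 41 members had an unadjusted p under 0.05, or 17.1%, against 13% of all genes, and DESeq2 called 2 members, or 4.88%, against 6.13% of all genes. The members with the smallest p were Lsm4, Smg1, Exosc3 and Exosc4. Lsm4, a ring subunit, held 43.8 CPM in c_DRB and 47.1 and 47.6 CPM in rhau_sko_DRB, against 34.4 and 33.5 CPM in c and 30.7 CPM in rhau_sko. The log2 difference was 0.50 ± 0.13 (SE, adjusted p = 0.187). Smg1 held 37.7 CPM in c_DRB and 48.4 and 51.0 CPM in rhau_sko_DRB, against 49.9 and 52.1 CPM in c and 65.5 CPM in rhau_sko (log2 difference -0.42 ± 0.12 SE, adjusted p = 0.200). Exosc3, a cap subunit of the exosome, held 114 CPM in c_DRB and 115 and 156 CPM in rhau_sko_DRB, against 88.8 and 98.7 CPM in c and 94.0 CPM in rhau_sko (log2 difference 0.40 ± 0.14 SE, adjusted p = 0.265). In Smg1 the libraries with DRB overlapped those without. In Lsm4 and Exosc3 they did not, but picking members by smallest p favours such separation, so it is no further evidence. Exosc4 had a log2 difference of 0.27 ± 0.11 (SE, adjusted p = 0.346). With 1 library in c_DRB and 1 in rhau_sko, the members' log2 differences ran over -0.42 to 0.72.

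After cPDS, 31 of the 41 members changed (14 higher, 17 lower), or 75.6%, against 50.8% of the 16115 genes tested (23.4% higher, 27.4% lower). The members' median log2 fold change was 0.05, against 0.01 over all genes, so they moved both ways about the same centre. Their changes were not larger: the median absolute log2 fold change was 0.41 over the members and 0.43 over all genes. A called change of 2-fold or more was seen in 6 of the 41 members and in 2305 of the 16115 genes. Ring genes of the exosome mostly fell, Exosc2, Exosc3, Exosc5, Exosc7 and Exosc9 of 8, with Exosc1 and Exosc4 higher. Its nucleases split, Exosc10 and Dis3, the nuclear ones, higher and the cytoplasmic Dis3l lower. In the helicase and SKI group Skiv2l, Skiv2l2 and Ttc37 fell. Both 5'-3' exonucleases, the cytoplasmic Xrn1 and the nuclear Xrn2, rose. Of the decapping genes Dcp1b and Dcp2 rose and Edc4 fell, and of the LSM ring and PATL1, Lsm2, Lsm3, Lsm5 and Patl1 rose and Lsm4 and Lsm6 fell. Of the NMD factors Smg1 rose and Upf2, Upf3a and Smg6 fell, and of the poly(A) nucleases Pan2 rose and Pan3 and Parn fell. Each of these calls was made with DESeq2's size factors and with library size alone too, except that Exosc10 was not called with library size alone, and DESeq2's size factors added Upf3b, higher.

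Exosc2, a cap subunit that binds RNA at the entry of the exosome barrel (chr2:31526235-31536870, plus strand), fell the furthest. It held 3.80, 3.55 and 3.30 CPM after cPDS, against 14.5, 13.4 and 18.4 CPM in GV_C, a log2 fold change of -2.12 ± 0.15 (SE, adjusted p = 9.98e-09). Exosc3 (chr4:45329485-45355604, minus strand), also a cap subunit, held 40.3, 35.2 and 28.3 CPM after cPDS, against 82.3, 101 and 98.5 CPM in GV_C (log2 fold change -1.45 ± 0.12 SE, adjusted p = 6.06e-08). The third cap subunit, Exosc1, moved the other way, at 206 ± 13.5 CPM after cPDS and 146 ± 4.21 CPM in GV_C (SD, n = 3 each; log2 fold change 0.50 ± 0.07 SE, adjusted p = 1.83e-05). Of the 3 cap subunits, then, 2 fell and 1 rose. Exosc7, the most abundant ring subunit per kilobase beside Exosc1, averaged 96.0 ± 11.2 CPM after cPDS and 164 ± 4.61 CPM in GV_C.

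Lsm4 (chr8:73197147-73202651, plus strand) held 11.7, 12.8 and 9.10 CPM after cPDS, against 38.9, 44.8 and 42.0 CPM in GV_C, a log2 fold change of -1.92 ± 0.12 (SE, adjusted p = 3.58e-09). Patl1, which the LSM ring binds, held 19.2, 22.7 and 24.6 CPM after cPDS, against 11.7, 11.3 and 9.42 CPM in GV_C, and was the named member that rose (log2 fold change 1.04 ± 0.12 SE, adjusted p = 3.65e-06). Edc4 held 40.1, 37.9 and 40.0 CPM after cPDS, against 84.4, 73.0 and 76.4 CPM in GV_C (log2 fold change -0.98 ± 0.08 SE, adjusted p = 7.42e-08). No cPDS library overlapped GV_C in any of these genes. Edc4 shares 8.33% of its exon length with Nrn1l on the same strand, and Nrn1l had a log2 fold change of 0.18 (adjusted p = 0.382).

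Skiv2l held 5.28, 4.66 and 5.78 CPM after cPDS, against 16.2, 11.9 and 15.4 CPM in GV_C (log2 fold change -1.45 ± 0.14 SE, adjusted p = 5.29e-07), and its partner Ttc37 averaged 113 ± 3.50 CPM after cPDS and 149.6 ± 9.68 CPM in GV_C. Wdr61 averaged 28.0 ± 1.90 CPM after cPDS and 26.3 ± 1.62 CPM in GV_C, in overlapping groups, and did not pass. Smg6, the endonuclease that cuts NMD targets, held 8.93, 7.22 and 7.17 CPM after cPDS, against 18.6, 20.7 and 19.2 CPM in GV_C (log2 fold change -1.33 ± 0.12 SE, adjusted p = 1.91e-07). Upf3a held 6.61, 7.03 and 5.57 CPM after cPDS, against 10.7, 11.4 and 11.4 CPM in GV_C (log2 fold change -0.81 ± 0.13 SE, adjusted p = 6.75e-05), and Upf2 averaged 44.9 ± 1.19 CPM after cPDS and 66.6 ± 4.07 CPM in GV_C. Upf2 and Upf3a, which rose in rhau_sko oocytes, thus fell after cPDS. The 10 members that did not pass had log2 fold changes of -0.54 to 0.21. Granulosa markers took 0.00799 to 0.00927% of counts after cPDS and 0.0102 to 0.0107% in GV_C, with Ptx3 at 0 in both groups. Immune, endothelial and blood markers moved further, at 0.00152 to 0.00159% after cPDS and 0.00559 to 0.00596% in GV_C, with Hba-a1 and Hbb-b1 at 0 in both groups. Oocyte markers took 2.58 to 2.96% after cPDS and 1.99 to 2.33% in GV_C, and theca and stroma markers overlapped between the groups. The part of these markers was not tested.

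**Figure D4:**
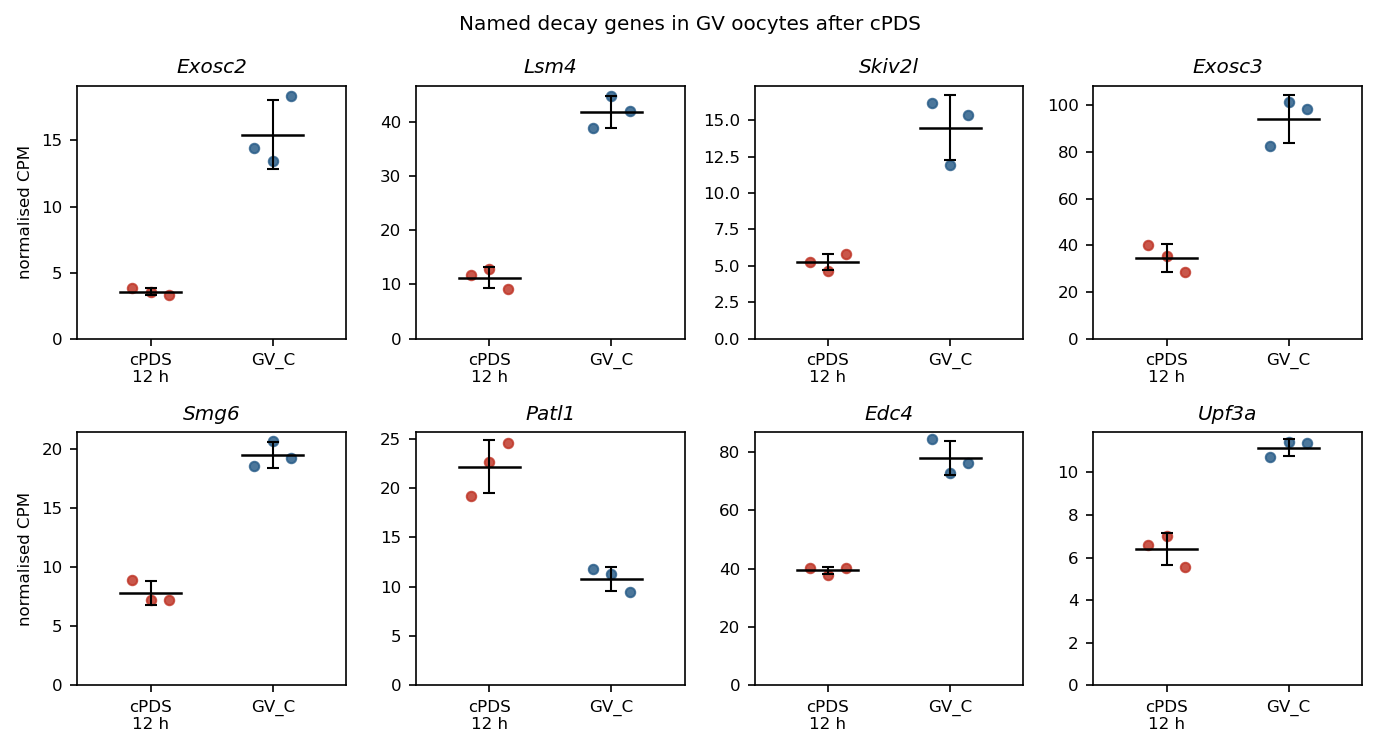
Normalised CPM of the 8 members named for the cPDS comparison in GV_cPDS_12h (left) and GV_C (right), 3 libraries each (points), with the mean (line) and SD (bar). Patl1 is higher after cPDS and the other 7 genes are lower, with no overlap between the groups.

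The cPDS comparison shares no library with the sko experiments. Of the 17 members called in growing sko oocytes, 11 were also called after cPDS, 5 in the same direction and 6 in the opposite one, or 54.5% opposite, against 42.7% opposite among the 4310 genes of the whole table called in both. The 11 were 64.7% of the members called in growing oocytes and 35.5% of those called after cPDS, against 59% and 55.2% over all genes. Of the 16 called in the second experiment, 11 were called after cPDS, 4 in the same and 7 in the opposite direction, or 63.6% opposite, against 37.1% of 3318 genes. These 11 were 68.8% of the members called in the second experiment and 35.5% of those called after cPDS, against 58.1% and 41.2% over all genes. Exosc5 and Skiv2l2 fell in all 3 comparisons, and Upf2 and Ttc37 rose in both sko experiments and fell after cPDS. For Exosc5 the log2 fold changes were -0.86, -0.89 and -0.55 in growing sko, rhau_sko and cPDS oocytes, and for Upf2 they were 1.12, 1.40 and -0.57. The difference between those changes was not tested.

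With Trim21, 2 of the 40 members measured changed, or 5%, both higher, against 11.5% of the 14191 genes tested (6.26% higher, 5.23% lower). The median log2 fold change was -0.01 both over the members and over all genes. Both were SKI complex genes that also rose in growing sko oocytes, in libraries the Trim experiment does not share. Of all genes called with Trim21 and tested in both, 63.1% were also called in growing sko oocytes (938 genes, 607 of them in the same direction). In the second experiment neither gene was called, with log2 differences of 0.28 ± 0.20 (SE, adjusted p = 0.314) for Wdr61 and 0.19 ± 0.16 (SE, adjusted p = 0.379) for Skiv2l. Wdr61 held 38.0, 37.8 and 52.5 CPM with Trim21, against 30.2, 18.2 and 26.2 CPM in Trim controls (log2 fold change 0.79 ± 0.20 SE, adjusted p = 0.0236), and Dnaja4, which overlaps it, had a log2 fold change of 0.15 (adjusted p = 0.773). Skiv2l held 14.4, 14.5 and 17.5 CPM with Trim21, against 9.79, 9.15 and 11.5 CPM in Trim controls (log2 fold change 0.61 ± 0.18 SE, adjusted p = 0.0445). Neither gene's groups overlapped. Ttc37 averaged 146 ± 8.09 CPM with Trim21 and 165 ± 28.8 CPM in Trim controls, in overlapping groups, and did not pass.

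Next by p were Pan3 and Lsm1, which missed the threshold as fitted. Pan3 passed it under library size alone, with no filter on low counts, with a replicate block and without Trim21_3h replicate 3 or Trim_control_3h replicate 2, and Lsm1 passed it with a replicate block. Over all alternatives run the adjusted p ran over 0.0162 to 0.262 for Pan3 and 0.0323 to 0.303 for Lsm1. Pan3 held 880.1, 904 and 703 CPM with Trim21, against 640.4, 713 and 581 CPM in Trim controls, where the lowest Trim21 library lies under the highest control (log2 difference 0.36 ± 0.12 SE, adjusted p = 0.0721). Lsm1 held 133, 114 and 138 CPM with Trim21, against 107, 81.5 and 107 CPM in Trim controls (log2 difference 0.39 ± 0.13 SE, adjusted p = 0.0901). Upf3b, the gene with the deepest fall in the sko experiments, held 63.5, 74.2 and 67.4 CPM with Trim21, against 70.4, 77.6 and 73.8 CPM in Trim controls, in overlapping groups (log2 difference -0.12 ± 0.12 SE, adjusted p = 0.602). Upf2 held 51.3, 55.8 and 56.2 CPM with Trim21, against 41.5, 53.7 and 44.8 CPM in Trim controls, in overlapping groups (log2 difference 0.22 ± 0.13 SE, adjusted p = 0.352).

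The Trim calls rest on single libraries: no member was called without Trim_control_3h replicate 3 (5 had an unadjusted p under 0.05 by edgeR), where 7.44% of all genes passed. Without Trim21_3h replicate 1, 2 or 3 or Trim_control_3h replicate 1, 1 member was called, where 6.33 to 9.98% of all genes passed. Skiv2l was not called under library size alone or without any 1 of the 6 libraries, and Wdr61 was not called without Trim21_3h replicate 3 or Trim_control_3h replicate 3. Over all alternatives run the adjusted p of Wdr61 ran over 0.000101 to 0.146 and that of Skiv2l over 0.0234 to 0.194, with log2 fold changes of 0.60 to 0.95 and 0.51 to 0.71. Granulosa markers took 0.00647 to 0.00699% of counts with Trim21 and 0.0043 to 0.00441% in Trim controls, with Foxl2 and Amh at 0 in both groups, while the ranges of the other 3 marker lists overlapped. The part of these markers was not tested. The 38 members that did not pass had log2 fold changes of -0.32 to 1.41, the highest being Edc3, at 1.36 ± 0.470 CPM with Trim21 and 0.488 ± 0.442 CPM in Trim controls.

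**Figure D5:**
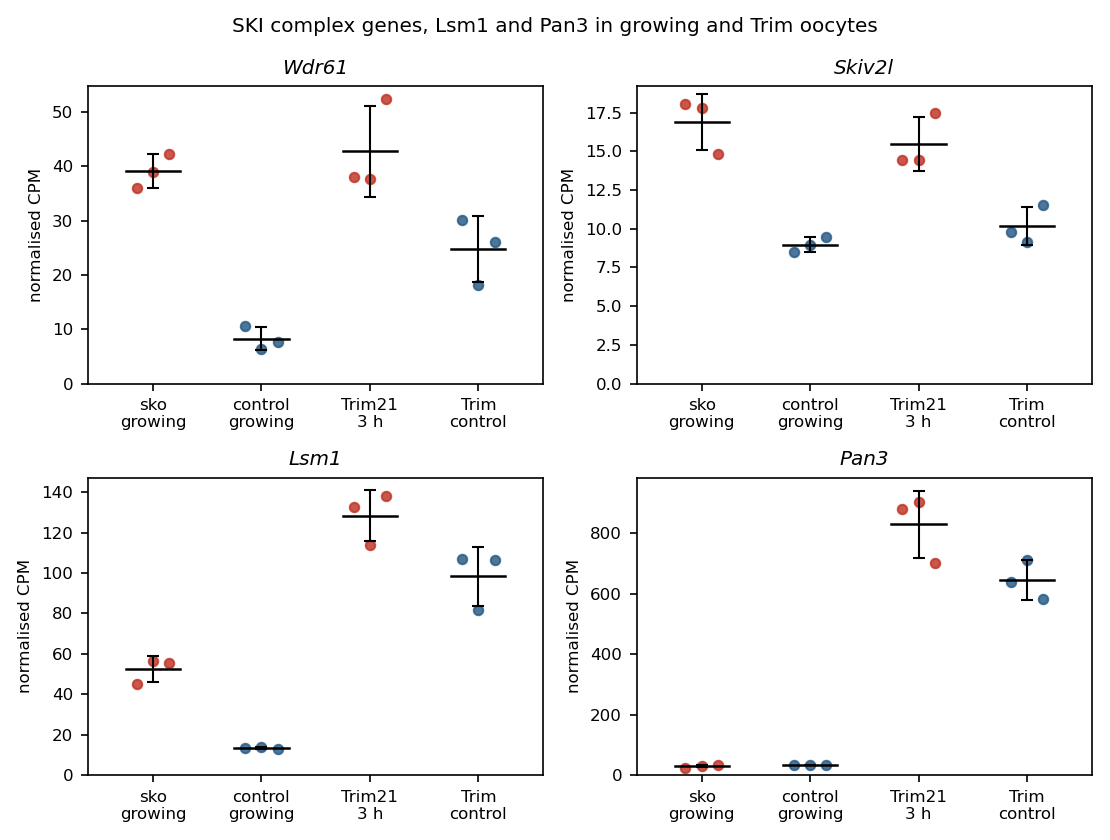
Normalised CPM of Wdr61, Skiv2l, Lsm1 and Pan3 in growing sko, growing control, Trim21_3h and Trim_control_3h oocytes (3 libraries each, points), with the mean (line) and SD (bar). Wdr61 and Skiv2l are higher in both growing sko and Trim21 oocytes than in their controls, and Pan3 is near its control in growing sko oocytes and far higher in both Trim groups than in growing oocytes.

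A further list of 36 genes of the same pathways (exosome cofactors, decapping cofactors, further NMD and exon junction genes and uridylation enzymes), 35 of them in the first table, gave the setting of these changes. In growing sko oocytes 7 rose and 8 fell, or 42.9%, against 53.7% of all genes, and in the second experiment 9 rose and 2 fell, or 31.4%, against 37.8%. After cPDS 8 rose and 13 fell, or 60%, against 50.8% of all genes. With Trim21 1 rose and 3 fell, or 11.4%, against 11.5%, and with DRB none passed by edgeR, against 0.0126%. C1d, a cofactor of the nuclear exosome, averaged 43.8 ± 4.02 CPM in growing sko oocytes and 4.36 ± 0.764 CPM in controls, a log2 fold change of 3.32 ± 0.16 (SE, adjusted p = 3.07e-10). On the log2 scale it also rose in rhau_sko oocytes, by 1.53 ± 0.16 (SE, adjusted p = 5.85e-05), and with Trim21, by 1.35 ± 0.25 (SE, adjusted p = 0.00373). Ddx6, the decapping and storage helicase, averaged 354 ± 74.4 CPM in the rhau_sko libraries and 27.4 ± 2.54 CPM in the c libraries (log2 fold change 3.64 ± 0.17 SE, adjusted p = 5.11e-07), and rose by 2.14 ± 0.15 (SE, adjusted p = 1.86e-08) on the log2 scale in growing sko oocytes. After cPDS Ddx6 fell (log2 fold change -0.85 ± 0.13 SE, adjusted p = 4.86e-05). Dcps, the scavenger enzyme that hydrolyses the cap left by 3' decay, averaged 1.25 ± 0.0874 CPM after cPDS and 18.8 ± 1.21 CPM in GV_C, a log2 fold change of -3.92 ± 0.14 (SE, adjusted p = 9.41e-12). Lsm14a, a P-body protein that binds DDX6, fell after cPDS (log2 fold change -1.499 ± 0.07 SE, adjusted p = 1.35e-10). The 2 sko experiments went opposite ways for Lsm14a. It rose in rhau_sko oocytes (log2 fold change 0.35 ± 0.11 SE, adjusted p = 0.0269) and fell in growing sko oocytes (log2 fold change -0.44 ± 0.12 SE, adjusted p = 0.00561). Its paralog Lsm14b averaged 153 ± 14.0 CPM with Trim21 and 313 ± 23.6 CPM in Trim controls (log2 fold change -1.03 ± 0.11 SE, adjusted p = 7.83e-05). Lsm14b rose in rhau_sko oocytes (log2 fold change 1.30 ± 0.15 SE, adjusted p = 7.63e-05) and was not called in growing sko oocytes or after cPDS. The sko change of 7 genes of the list differed between the experiments, or 20%, against 13.2% of all genes, 1 more positive and 6 more negative in growing oocytes, with C1d at 1.81 ± 0.23 (SE, adjusted p = 5.33e-05) and Lsm14b at -1.61 ± 0.23 (SE, adjusted p = 1.22e-04) on the log2 scale.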

How the data were processed

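Oocyte RNA was sequenced in 26 libraries, of which 24 were used. Per the file headers, the authors deposited whole-number counts of reads over each gene's exons, laid out as featureCounts does. The submitters' processing notes name the mouse build mm9 and, among other tools, featureCounts 2.0.1, the aligners STAR 2.5.2b and HISAT2 2.1.0, and fastp 0.21.0. Which tool made which table, whether counting used strand, and how reads in several genes were handled, is not given in the sources used here. Values of genes whose exons overlap another gene's are therefore uncertain, in 14 of the 41 members. The 4 with 10% or more of their exons overlapped are Exosc4, Exosc9, Wdr61 and Edc3. Those with less are Exosc2, Exosc3, Exosc8, Dis3, Skiv2l, Skiv2l2, Xrn1, Edc4, Upf1 and Smg6. Column names were mapped to samples through the labels, and 0 sample columns stayed unmapped. Peak and binding assays were not analysed here.

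Genes were kept by filterByExpr (minimum count 10), libraries were scaled with TMM factors, and edgeR 4.0.16 in R 4.3.3 gave quasi-likelihood p-values with Benjamini-Hochberg adjustment across every gene tested (threshold 0.05). The standard error (SE) is the size of the log2 fold change divided by the root of the F statistic. Normalised CPM are counts per 1000000 of the TMM-scaled library size, within each experiment, given per library or as mean ± SD. No replicate pair (20 compared) was within sampling noise, with a chi-square of 6.83 to 68.2 per degree of freedom. Growing, cPDS and Trim libraries each had a fit of their own, the second experiment with additive genotype and DRB terms, and the difference between the sko changes on 12 libraries. The fits were also run on counts simulated from their own dispersions with few genes changed. The growing and cPDS data differ from that setting, so nothing is concluded from it. Alternatives were library size alone, DESeq2's size factors, the DESeq2 1.42.0 Wald test, no filter on low counts, each library left out, all 8 libraries of the second experiment, and the replicate number as a block.

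The members, the lists and the tests were chosen with earlier results of these data known. Members given in every library are the called ones whose groups do not overlap and that average at least 1 CPM, up to 8 with the largest change per comparison. Lack of overlap in members named this way follows from the rule and is no further evidence. Where fewer than 4 passed, the 4 with the smallest p are given, called or not. A small p favours groups that do not overlap, so lack of overlap in these is no further evidence either. Other members are given by role, with a few added after their values were seen (Ttc37, Dcp1a, Dcp2, Edc4, Smg1, Parn, Exosc1, Exosc7, Skiv2l, Upf2, Upf3a, Upf3b, Wdr61 and Edc3 outside the comparisons that named them). Of the further pathway list, the 2 called genes with the smallest p in each comparison are named, with some of their values in other comparisons.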

Additional observations from a re-analysis of the deposited data

Results flagged for a closer look

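The sko change of 9 members differed between growing oocytes and the second experiment by a test of the difference itself (edgeR, adjusted over 16655 genes). The value is the change in growing oocytes minus the change in the second experiment, on the log2 scale. It was 1.497 for Lsm1 (adjusted p = 6.06e-05), 1.99 for Wdr61 (adjusted p = 1.40e-04) and 0.80 for Exosc4 (adjusted p = 0.00747). Skiv2l differed by 0.75 (adjusted p = 0.0284) and Smg5 by 1.55 (adjusted p = 0.0350). On the negative side were Dcp2, at -0.72 (adjusted p = 0.0140), and Lsm7, at -1.53 (adjusted p = 0.0177). Upf3b differed by -0.61 (adjusted p = 0.0321), falling further in growing oocytes, and Dcp1a by -0.55 (adjusted p = 0.0398). With library size alone, Lsm1, Wdr61, Exosc4, Skiv2l and Smg5 were called and the 4 members with negative differences were not. With DESeq2's size factors Skiv2l was not called.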

How the results depend on the processing

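No value of a named member changed sign: of 408 alternative values, 380 kept their side of the threshold, 20 lost their call and 8 gained one, and none of those changes were in the growing or cPDS comparisons. Most named members were picked as called with groups that do not overlap, which makes a change of sign unlikely. The tally therefore does not speak for the other members. The number of members called between rhau_sko and c was 6 with all 8 libraries and 8 to 15 with 1 library left out (16 as reported), where 26% and 22.3 to 36.8% of all genes passed. With all 8 libraries Ttc37 was not called (adjusted p = 0.0874). With DRB, DESeq2 called 2 members, Lsm4 and Smg1 (6.13% of all genes). With Trim21, 0 to 3 members were called with 1 library left out (6.33 to 13.2% of all genes). The count of members whose sko change differed was 5 under library size alone (14.1% of all genes) and 4 to 10 with 1 library left out (6.57 to 14.4%). Dcp2 lost its call under library size alone and without rhau_sko replicate 5 (adjusted p = 0.0775 and 0.147), and Exosc4 without c_DRB replicate 3 (adjusted p = 0.053). The labels do not say whether replicate numbers pair the samples, and 3 libraries a side cannot decide it. In the cPDS experiment same-numbered libraries correlated at -0.141, -0.121 and -0.0647, against 0.0181 to 0.117 between unlike numbers. In the Trim experiment same-numbered libraries correlated at 0.151, 0.161 and -0.092, against -0.275 to 0.185 between unlike numbers. With the replicate number as a block, 29 members were called after cPDS (70.7%, against 46.9% of all genes) and 4 with Trim21 (10%, against 12.4% of all genes). The counts of the growing comparison ran over 14 to 19 and of the cPDS comparison over 26 to 32 with 1 library left out, where 45.9 to 52.5% and 42.3 to 48.8% of all genes passed. Depth limits Edc3, Smg5, Dcp1b and, in growing oocytes, Lsm7. The causes of these shifts were not tested.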
